A study of Saccharomyces cerevisiae with 2 samples.

Results

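Chromosome 3 of budding yeast carries the mating-type locus MAT and the silent mating cassettes HML and HMR, and the report follows the chromosome from one end to the other. Its members were all probes whose listed position is on chromosome 3, which gave 1066 of the 41282 nuclear probes on the array. Of these, 901 were used, out of 34899 used over all nuclear chromosomes, and all 1066 listed only reading frames with chromosome III names beside them. The used probes run from position 9580 to 314242 in the coordinates of the files, whose genome build the sources used here do not give. Over all 1066 probes neighbours started 270 bp apart (median), and the largest gap, 5985 bp, lies at a retrotransposon on the left arm.

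The study used 1 group of cells, Saccharomyces cerevisiae strain MDY513, which lacks HTZ1, the gene of the histone variant H2A.Z. Cells were held in G1 with the mating pheromone alpha factor (4 µg/mL for 4 h) and moved to galactose medium (2%), and chromatin was taken after 180 min. The cells made H3 tagged with Myc all the time and H3 tagged with Flag only in galactose. Both were precipitated, amplified and hybridised to 2 replicate arrays, with Flag in Cy3 and Myc in Cy5. No wild-type strain, other time or dye swap was analysed here. All values are log2 Flag over Myc, centred on each array's median, so that 0 is the array's median ratio and not equal amounts of both. A value of 1 is 1 doubling above that median. Whether the replicates were separate cultures is not in the labels. The p-values below therefore rest only on how far these 2 arrays differ, and that spread may be technical. For probes, frames and windows limma drew each spread toward a value shared by all. A small p can therefore stand beside arrays that differ widely. Frame standard errors were 0.088 at CDC50 (SD 0.0003) and 0.19 at MATALPHA2 (SD 0.63). For promoters the test used a spread pooled over promoters, so their calls follow the mean and not each promoter's own spread.

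Histone H3 is laid down behind replication forks and is also exchanged outside S phase, mostly at promoters and over active genes. In cells held in G1, more Flag relative to Myc marks DNA where a larger part of the H3 was made recently. HML and HMR hold complete but silenced copies of mating-type genes, HML those of type α and HMR those of type a. Silencer elements called E and I flank each cassette, bind the origin recognition complex, Rap1 and Abf1, and recruit the Sir proteins, which spread over deacetylated nucleosomes. MAT is the expressed copy, and a recombination enhancer on the left arm directs cells of type a to use HML as donor when they switch. H2A.Z is known in yeast for its place in the nucleosomes beside promoters and for limiting the spread of silent chromatin from HMR and telomeres.

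The arrays agreed closely along the chromosome. Over the 901 used probes Pearson's r was 0.97 and Spearman's rho was 0.96, a description across probes that share both arrays and are no replicates of the strain. Values spread with an SD of 1.34 over probes and with a median SD of 0.17 between the arrays. Of the 1066 probes, 103 (9.66%) were not well above background, against 9.60% over all nuclear chromosomes, and 62 more carried an outlier flag. No probe was saturated. A group of 34 was dim in both channels of both arrays, and 0 of the 698 probes inside reading frames were among them.

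Taken whole, chromosome 3 lay close to the rest of the genome. Its mean was 0.14 on replicate 1 and 0.14 on replicate 2, against 0.18 and 0.18 for the other chromosomes, a difference of -0.04 ± 0.001 (SD, n = 2). Tested against the array median with limma, 350 probes were higher (38.8%) and 366 were lower (40.6%). Over all nuclear probes 40.5% were higher and 40.1% lower, 80.6% in all, so a call is common and the chromosome's shares are near the background. Counts of called probes below are to be read beside these shares. The left arm averaged 0.26 ± 0.004 over 313 probes and the right arm 0.08 ± 0.002 over 588 probes, while their medians were -0.03 and -0.04. An exact two-sided sign-flip test on 2 arrays cannot give a p below 0.5, so differences between regions are given per array, with no p.

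**Figure D1:**
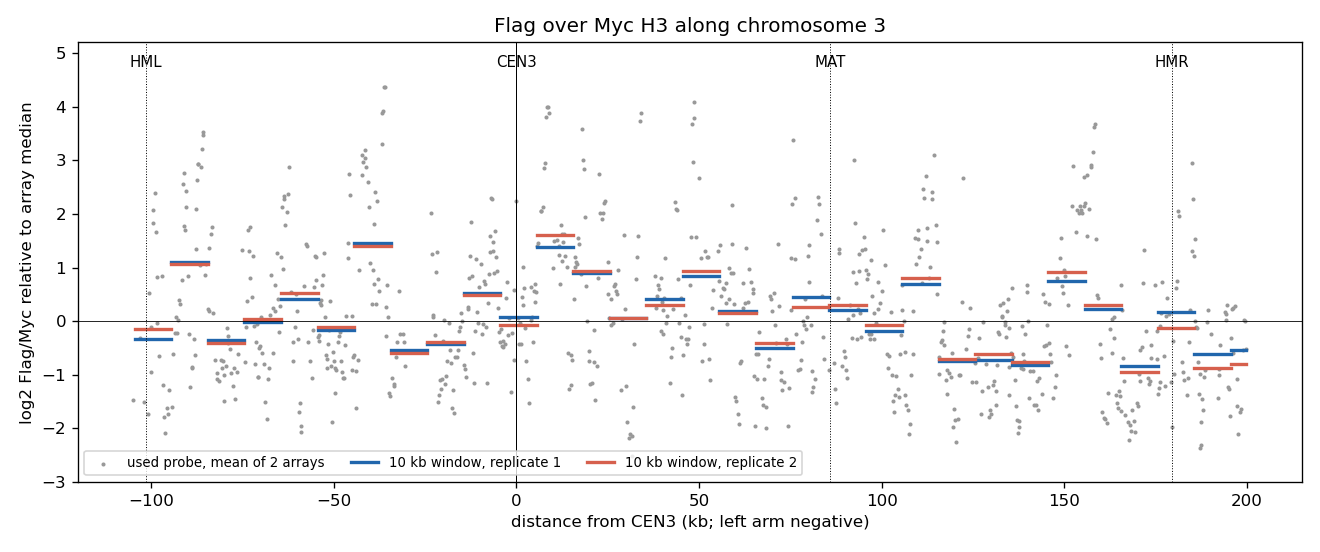
Centred log2 Flag/Myc ratio (vertical axis, 0 is the array median) against distance from CEN3 in kb (horizontal axis, left arm negative). Grey points are the 901 used probes of chromosome 3 (mean of 2 arrays) and coloured bars are the 10 kb windows on each replicate. Peaks reach above 4 on both arms, and right of about 116 kb from CEN3 the window bars are mostly below 0.

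HML lies at 12386 to 13809, the span of the frames HMLALPHA2 and HMLALPHA1, and it held some of the lowest reading-frame values of the chromosome. The HMLALPHA2 probe (12424) read -1.41 and -1.62, mean -1.51 ± 0.15 (SD, n = 2; limma adjusted p = 1.3e-13). The HMLALPHA1 probe (13645) read -1.85 and -1.62, mean -1.74 ± 0.16 (limma adjusted p = 4.1e-16). Both probes were low on both arrays, 2.86-fold and 3.33-fold under the array median. Among the 151 measured reading frames of chromosome 3, HMLALPHA1 was the lowest and HMLALPHA2 the fourth lowest. HMLALPHA1 stood at percentile 0.144 of all 5550 frames. Each of the 2 rests on 1 probe, whereas many frames are means of several probes. Ranked as single probes among all used probes, they stood at percentiles 3.31 (HMLALPHA1) and 7.04 (HMLALPHA2). HMLALPHA1 and HMLALPHA2 encode regulators of α-specific and a-specific genes, and both are silent in this cassette. The probe between these frames (13074) was dim in both channels of both arrays and was not used.

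The low ratio did not continue evenly to the right of HML. Just outside the frames, the probe at 13970 read 0.54 and 0.53 (limma adjusted p = 0.0024), a call lost under loess (0.10). The next used probe (14384) was low again at -0.88 and -1.02 (limma adjusted p = 2.7e-07), and the one beside ARS302, the origin at the right silencer (14575), read -0.08 and -0.12 and did not pass (14500, limma adjusted p = 0.58). With background correction from the raw signals that probe was higher, at 0.43. From there the ratio climbed. Between 1 and 2 kb from HML all 4 used probes were higher, on average 2.00 ± 0.12. The highest of them (15427) read 2.39 and 2.40, which is 5.26-fold above the array median (limma adjusted p = 2.6e-23). The files list the origins ARS303 (14871) and ARS320 (15214) within this stretch. Between 2 and 5 kb the mean was again below the median, -0.71 ± 0.18, with 5 of 8 probes lower. Left of HML the array has little coverage. The probe at 11413, by ARS301 (11146), read -0.49 and -0.15 and did not pass (limma adjusted p = 0.069), and the first probe of the chromosome (9580), in the promoter of the amino acid permease gene VBA3, read -1.35 and -1.60.

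Averaged per array, HML read -1.63 and -1.62 over its 2 used probes, and its flanks from 2 to 10 kb read -0.14 and -0.07 over 24 probes. The difference was -1.49 and -1.55, mean -1.52 ± 0.04 (SD, n = 2). HML was thus below its flanks on both arrays, and 23 of those flank probes lie on the right. The HML mean was -0.90 when dim probes, here the one between the frames, were kept. It was -0.68 ± 0.02 over the 6 probes between the left ends of the silencer origins ARS301 and ARS302, an extent chosen after the values were seen.

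**Figure D2:**
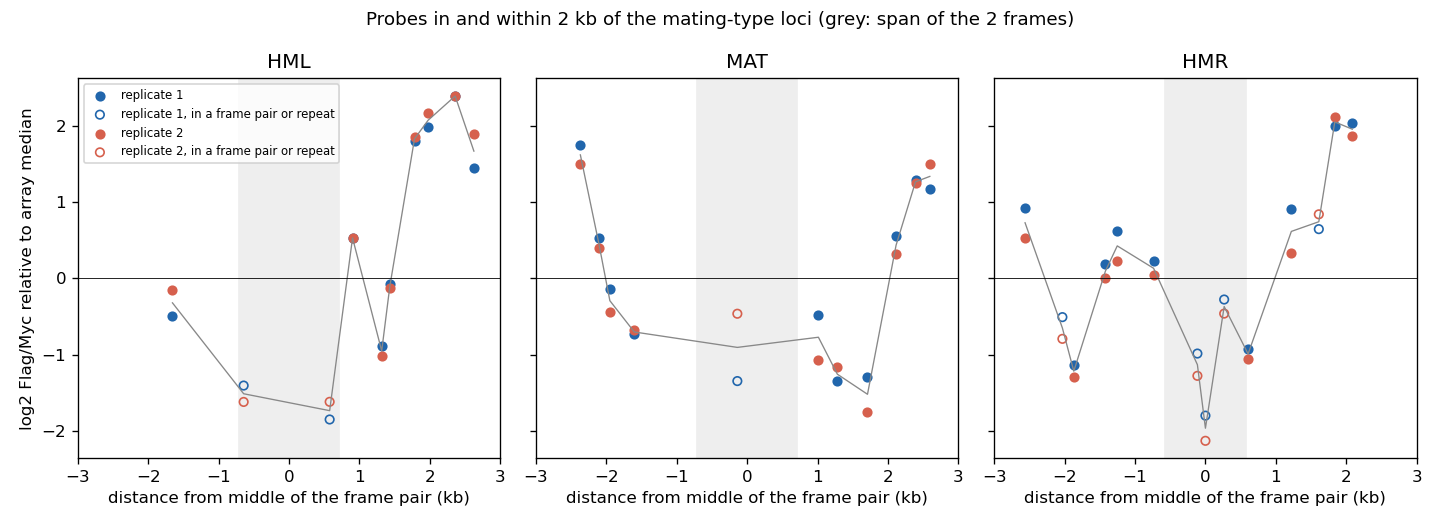
Centred log2 Flag/Myc ratio (vertical axis, 0 is the array median) of used probes in and within 2 kb of HML, MAT and HMR, against distance from the middle of each frame pair in kb (horizontal axis). Blue and red points are the replicates, open points lie in a frame pair or a repeat and can read another copy, the grey line joins the means and the shaded band is the span of the 2 frames. At HML and HMR the points under the band are below 0 on both arrays, and both panels climb to about 2 on the right side.

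MAT, at 199541 to 200964, rested on a single used probe, which can also read HML. Alpha factor arrests cells of mating type a, in which α-specific DNA is only at HML, so this value and its difference from the flanks may be readings of HML. That probe, in MATALPHA2 (200083), read -1.35 on replicate 1 and -0.46 on replicate 2, mean -0.91 ± 0.63 (limma adjusted p = 2e-06). Both arrays were below the median, but they differed by far more than the median SD between arrays. The second MAT probe, in MATALPHA1 (200538), read -1.87 and -1.39 and was left out for an outlier flag. Flanks at 2 to 10 kb averaged 0.45 ± 0.02 over 52 probes, so that MAT minus flanks was -1.81 on replicate 1 and -0.90 on replicate 2. The size of that difference rests on which array is read.

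Right of MAT, the probes within about 1 kb were low. In TAF2, which encodes a subunit of the general transcription factor TFIID, the 3 probes nearest to MAT were all lower. The nearest (201234) read -0.48 and -1.07, the next (201503) -1.35 and -1.17, and the last (201931) -1.29 and -1.75. The 3 probes of TAF2 that follow, from 1 to 2 kb, were all higher, with a mean of 1.02 ± 0.01, the top one (202816) at 1.18 and 1.50. The nearest of these (202337) lost its call without the filter on dim probes. On the left, in BUD5, an exchange factor for bud site choice, values went from -0.73 and -0.67 at 892 bp to 1.75 and 1.50 at 1658 bp. At 2 to 5 kb on the right the mean was below the median again, -0.53 ± 0.13, with 5 of 7 probes lower. High and low probes thus alternated in these genes, and their means were small: 0.27 ± 0.11 for BUD5 (limma adjusted p = 0.027) and -0.37 ± 0.01 for TAF2 (limma adjusted p = 0.0054). The BUD5 call was lost under 3 alternatives (background-corrected signals, loess and no filter on dim probes), and the TAF2 call under loess.

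HMR, at 293175 to 294317, was lower than the array median at all 3 of its used probes. The probe at 293603 read -0.99 and -1.28 (limma adjusted p = 3.1e-09), and its neighbour at 293717 read -1.80 and -2.13, mean -1.97 ± 0.23 (limma adjusted p = 1.3e-18). Both lie between the frames HMRA2 and HMRA1, in their shared promoter, and the second, at 3.91-fold under the median, stood at percentile 1.08 of all used probes. Inside HMRA1, whose product with α2 represses haploid genes in diploid cells, the probe at 293983 read only -0.28 and -0.46 (limma adjusted p = 0.035). With background correction from the raw signals this probe was at -0.05 and did not pass.

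The stretch between HMR and the left silencer was close to the median. From ARS317 (292384), the origin at the E silencer, inward, the probes at 292465 and 292981 read 0.63 and 0.23, and 0.23 and 0.04. Only the first passed the test (limma adjusted p = 0.015), and its call was lost without the filter on dim probes (0.33). On the right, the probe at 294323, next to ARS318 (294400) at the I silencer, was lower at -0.92 and -1.06 (limma adjusted p = 1e-07). Further right lies tT(AGU)C, a threonine tRNA gene (295480) known as the boundary of silent chromatin at HMR. The probe beside its listed position (295554) read 2.00 and 2.12, mean 2.06 ± 0.08 (limma adjusted p = 1.1e-19), and the next (295802) read 2.05 and 1.88. Both arrays were high at both probes, 4.16-fold and 3.89-fold above the median.

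HMR differed less from its surroundings than HML did on both arrays, given here with no p, and the surroundings themselves were low. In cells of type a, probes for the a-specific DNA of HMR also read MAT, so HML and HMR may not be like measures. The cassette averaged -1.02 and -1.29 and its flanks at 2 to 10 kb -0.41 and -0.67 over 51 probes, a difference of -0.61 and -0.62 (mean -0.62 ± 0.01, n = 2). Over the 6 probes between ARS317 and ARS318 the mean was -0.65 ± 0.18, and minus flanks it was only -0.05 ± 0.01. The difference from the flanks therefore depends on where the cassette is taken to end. At 5 to 10 kb on the left, 12 of 15 probes were lower, and at 10 to 20 kb 22 of 30, with means of -0.82 ± 0.16 and -1.03 ± 0.03. On the right, at 10 to 20 kb, 0 of 26 probes were higher and 15 were lower, with a mean of -0.65 ± 0.18. Over all nuclear probes 40.1% were lower and 40.5% higher, and of probes inside frames on the other chromosomes 50.1% were lower. At 2 to 5 kb on the right, replicate 1 averaged -0.29 and replicate 2 -0.74, and replicate 2 was also the lower array at 5 to 10 kb (-0.21 and -0.50).

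The 3 loci shared a shape on the right side. In each, values within 1 kb had a negative mean on both arrays (-0.17 ± 0.05 at HML, -1.18 ± 0.20 at MAT and -0.19 ± 0.25 at HMR), and values from 1 to 2 kb averaged 2.00, 1.02 and 2.01. The bins leave out probes in repeats and hold 2 to 4 probes each, and the HMR value nearest the cassette lies within the spread of the arrays. Whether any of these probes read another locus was not determined. The same shape was seen left of MAT (-0.70 ± 0.04, then 0.60 ± 0.16) and right of CEN3 (-0.18 ± 0.002, then 0.26 ± 0.23). Left of HMR (0.22 ± 0.18, then -0.24 ± 0.20) and left of CEN3 (0.70 ± 0.33, then -0.77 ± 0.24) the order was the reverse.

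Probes in the cassettes do read more than 1 locus. The X and Z1 blocks are shared by HML, MAT and HMR, the Yα block is at HML and in MAT of type α, and the Ya block is at HMR and in MAT of type a. The labels do not give the mating type. In cells of type a, those that alpha factor arrests, the α-specific DNA is only at HML. In such cells probes for the a-specific DNA of HMR also read MAT. In all, 8 probes lie within a frame pair (3 at HML, 2 at MAT, 3 at HMR), and 6 of them were used. The W and Z blocks run past the frames, so the probes nearest to a frame pair may read another copy as well. Which block each probe lies in was not determined here, and shared signal cannot be split between loci. The HML values may therefore not be of HML alone, also in cells of type a. Without these probes no cassette has a value.

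Long terminal repeats add a second kind of shared probe. Taking each listed repeat as 340 bp long, 14 probes of chromosome 3 overlapped one, and 4 of them were used. Their values ran from -0.65 to 0.998, with 2 higher and 1 lower. The lowest lies left of HMR (291686), at -0.51 and -0.79, a call lost with background correction from the raw signals, and one between HMR and the tRNA gene (295327) read 0.65 and 0.84. No probe lies within the retrotransposon of the left arm.

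The recombination enhancer region between KAR4 and SPB1 (28937 to 31448) was above the array median at most probes. Of 10 probes 7 were used, and 5 of the 7 were higher. All lie outside the frames used here. On the other chromosomes 60.7% of used probes outside frames and promoters were higher, and 76.9% of promoter probes, so this count is not unusual for such DNA. Those near its right side reached 1.47 and 1.77 (30873) and 1.73 and 1.80 (31129). The lowest lay in the middle, at 29982 (0.46 and -0.01) and at 30197 (0.64 and -0.25), beside the origin ARS304 (30200), and did not pass (limma adjusted p = 0.21 and 0.30). There the arrays differed in sign, and the first of them was higher with background correction from the raw signals (0.40). The last probe of the region also lies in the SPB1 promoter, so its value also counts as that promoter's.

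At 10 kb resolution, the cassettes did not stand out, and the right end did. Of 31 windows with at least 10 used probes, 14 were higher and 13 lower than the array median, where 51.4% and 35.4% (86.8% in all) of all 1170 windows were called. The HML window (10 to 20 kb) averaged -0.24 ± 0.12 and the HMR window (290 to 300 kb) 0.02 ± 0.21, which did not pass (limma adjusted p = 0.81). The MAT windows averaged 0.36 ± 0.14 and 0.25 ± 0.06. These windows mix silent DNA with genes and boundaries on either side.

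Right of 230 kb, a position chosen after the values were seen, 6 of 9 windows lay below the 10th percentile of all windows, and no other window of the chromosome did. The lowest, at 280 to 290 kb, averaged -0.84 and -0.95, mean -0.89 ± 0.08, at percentile 1.45, and holds CDC39, CDC50 and OCA4. Those at 230 to 260 kb averaged -0.72, -0.67 and -0.79, and the 2 last windows -0.74 ± 0.18 and -0.66 ± 0.19. Between them lie 2 higher windows, at 260 to 270 kb (0.84 ± 0.11) and 270 to 280 kb (0.26 ± 0.05), so the low ratio of the right arm was not continuous.

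The highest window was at 120 to 130 kb, just right of the centromere. It read 1.39 and 1.61, mean 1.50 ± 0.15 (limma adjusted p = 1.3e-09), at percentile 97.0, and holds YCP4, CIT2, YCR006C, DFP3 and SAT4. It also holds most of the longest unbroken stretch of higher probes on the chromosome, 28 probes over 9188 bp (119207 to 128394) with a mean of 1.79 ± 0.15. Next came the windows at 70 to 80 kb (1.43 ± 0.03), with FUS1 and the permease gene AGP1, and at 20 to 30 kb (1.09 ± 0.02), with KAR4 and KRR1. Next to the centromere values were mixed. The used probe nearest to CEN3 (114176, 177 bp left) read 2.50 and 1.99 (limma adjusted p = 2.0e-21), but the mean at 0 to 1 kb was 0.70 ± 0.33 on the left and -0.18 ± 0.002 on the right, and on the right 14 of 14 probes at 5 to 10 kb were higher (mean 2.30 ± 0.33).

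Other long stretches matched single genes or neighbours. A run of 22 higher probes over 7269 bp (266469 to 273737, mean 2.24 ± 0.03) covers ABP1, FIG2 and YCR090C, and a run of 20 (223471 to 229667, mean 1.66 ± 0.16) covers YIH1 to HCM1. The longest run of lower probes, 16 over 5046 bp (280535 to 285580, mean -1.47 ± 0.17), lies in CDC39, and runs of 13 and 10 lower probes cover RAD18 with SED4 and SSK22. Elsewhere in the genome the longest runs were 44 higher and 29 lower probes.

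Reading frames of genes for mating and pheromone response were mostly high, in cells under alpha factor. Over the chromosome, 56 of 151 measured frames were higher (37.1%) and 61 lower (40.4%), against 39.0% and 42.9% (81.9% in all) of all 5550 frames, with a median of -0.08 against -0.06. Of the 6 mating genes, 5 were higher and 1 was lower, with a median of 1.77. KAR4, a pheromone-induced transcription factor of nuclear fusion genes, read 3.37 and 3.18, mean 3.27 ± 0.14, which is 9.66-fold above the array median (limma adjusted p = 2.1e-07). FUS1, a membrane protein of cell fusion, read 2.96 and 3.04 (mean 3.00 ± 0.06, limma adjusted p = 2.3e-07). FIG2, a cell wall adhesin made during mating, read 2.29 and 2.30 over 15 probes. These 3 were high with little spread between the arrays.

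The remaining mating genes were less high or low. RVS161, needed for endocytosis and cell fusion, read 1.07 and 1.42, and BIK1, a microtubule protein needed for nuclear fusion, 0.50 and 0.96. STE50, the adaptor of the kinase Ste11, read -0.97 and -1.05 and was the lower one (mean -1.01 ± 0.06, limma adjusted p = 3.3e-05). The BIK1 and STE50 promoters went the other way from their frames, at -0.63 ± 0.06 and 0.37 ± 0.74. The BIK1 promoter call was lost with background correction from the raw signals (-0.21), and the STE50 call there (0.28) and without the filter on dim probes (0.27). The arrays differed in sign at the STE50 promoter (-0.15 and 0.89).

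All 4 genes of sugar and acetate metabolism were higher, with a median of 2.34, where 39.0% of all frames were higher. ADY2, an acetate transporter, read 3.24 and 3.05 (mean 3.15 ± 0.13). CIT2, the peroxisomal citrate synthase, read 1.89 and 2.93 (mean 2.41 ± 0.74) and had the widest spread. The glycolytic genes GLK1 (glucokinase) and PGK1 (phosphoglycerate kinase) read 2.15 and 2.40, and 2.20 and 1.99. Their promoters were all higher too, as were 75.9% of all promoters, and ran from 0.98 ± 0.14 at GLK1, the median of all promoters, to 3.82 ± 0.44 at CIT2.

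Of the 5 measured frames of amino acid genes 1 was higher and 2 were lower, with a median of 0.05. LEU2 of leucine synthesis read 0.24 and 0.19 and did not pass (limma adjusted p = 0.057), nor did CHA1, the serine deaminase gene beside HML, at -0.20 and 0.31. ILV6 (0.18 and 0.33) passed as higher but was -0.55 and lower under loess. HIS4 read -0.29 and -0.44, a call lost under loess, and the threonine synthase gene THR4 read -1.02 and -1.14. All 3 measured promoters were higher (HIS4 1.18 ± 0.16, LEU2 1.64 ± 0.15, ILV6 0.75 ± 0.20), as were 75.9% of all promoters, whose median was 0.98.

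AGP1, a broad amino acid permease, had a listed position that conflicted with its neighbours, so it has no gene value and is given by probe. From its listed left end (76131) the ratio fell and then climbed, from 2.24 at the first probe through 0.56 at the third to 3.92 at the seventh. The next probes, at 78153 (4.24 and 4.51) and 78336 (4.34 and 4.38), were 20.8-fold and 20.5-fold above the array median. The following one (78648) was at -0.08 and -0.46 and did not pass (limma adjusted p = 0.13), so the highest probes of the chromosome border on probes near the median.

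Ribosome genes were split. Of 7 frames 2 were higher, 4 lower and 1 did not pass, with a median of -0.50, against 39.0% higher and 42.9% lower over all frames. KRR1, a small-subunit assembly factor, read 2.12 and 1.94, and RPS14A, a small-subunit protein, 0.75 and 0.58. The lower ones were assembly or processing factors: PWP2 (-1.18 and -1.19), RRP7 (-0.74 and -1.01), SPB1 (-0.79 and -0.73) and the exosome subunit RRP43 (-0.41 and -0.59). BUD23, an 18S rRNA methyltransferase, read -0.45 and -0.08 and passed as lower only under 3 alternatives (background-corrected signals -0.51, loess -1.24 and no filter on dim probes -0.36). Of the mitochondrial ribosome genes, IMG1 was higher at 0.60 and 1.31, IMG2 lower at -1.21 and -1.04, and MRPL32 did not pass at -0.38 and 0.07. IMG1 was -0.58 and lower under loess.

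Genes of chromatin, transcription and replication were mostly low. Of 13 frames 10 were lower, 2 higher and 1 did not pass, with a median of -0.66, against 42.9% lower and 39.0% higher over all frames. CDC39, the scaffold of the Ccr4-Not complex, read -0.996 and -1.24 over 19 probes (mean -1.12 ± 0.17, limma adjusted p = 3.3e-05). DCC1 of sister chromatid cohesion read -0.99 and -0.95, the repair ubiquitin ligase RAD18 -0.87 and -0.87, and the mismatch repair gene MSH3 -0.83 and -0.80. The corepressor TUP1 read -0.83 and -0.57, the replication checkpoint gene MRC1 -0.87 and -0.52, and the histone deacetylase complex subunit SNT1 -0.50 and -0.38. All of these were below 0 on both arrays.

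The same list held smaller and opposite values. RSC6, of the RSC remodelling complex, read -0.41 and -0.14, and its call was lost when arrays were scaled (-0.27) and when flagged probes were kept (-0.14). CDC10, counted here, encodes a septin of the bud neck and no chromatin protein, and read -0.52 and -0.79. HCM1, a forkhead factor, read -0.18 and 0.03 and did not pass (limma adjusted p = 0.51). CSM1, a kinetochore and rDNA protein, was higher at 1.03 and 1.18. SGF29, of the SAGA complex, read 0.20 and 0.32, a call lost under 3 alternatives (background-corrected signals, loess and no filter on dim probes).

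**Figure D3:**
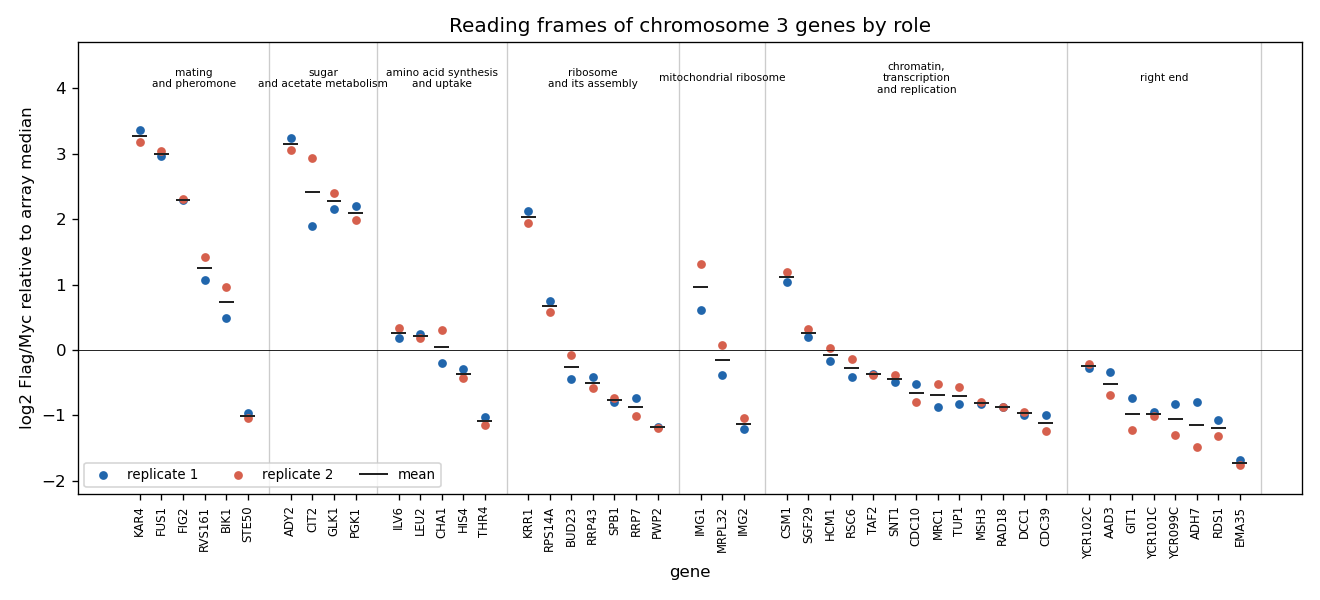
Centred log2 Flag/Myc ratio (vertical axis, 0 is the array median) in the reading frames of chromosome 3 genes, grouped by role (horizontal axis). Blue and red points are the replicates and the bar is their mean. Mating and sugar genes sit mostly above 1, and all 8 measured right-end genes are below 0 on both arrays.

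Genes of the right end were all low. Of 9 listed genes 8 were measured and 8 were lower, with a median of -1.02, where 42.9% of all frames were lower. EMA35 (YCR100C) was the second lowest frame of the chromosome, at -1.68 and -1.76 over 6 probes (mean -1.72 ± 0.06, limma adjusted p = 2.6e-06). RDS1, a zinc cluster regulator, read -1.07 and -1.31, and ADH7, an alcohol dehydrogenase, -0.80 and -1.49. GIT1, a permease of glycerophosphoinositol and the first gene right of HMR, read -0.73 and -1.22. Replicate 2 was the lower array in each of these, and the SD between arrays was 0.49 at ADH7 and 0.35 at GIT1. AAD3 (-0.34 and -0.70) and YCR102C (-0.28 and -0.21) were nearest to the median, have close relatives elsewhere in the genome, rest on 1 probe each and lost their calls under loess. At the left end no frame could be measured, and of its promoters only VBA3 was (-1.47 ± 0.17). Whether probes of EMA35, VBA3 or the other genes of the ends read related genes elsewhere was not determined.

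Neighbours of the cassettes followed no single pattern. By HML, VAC17 of vacuole inheritance read -1.11 and -1.01 and was lower. By MAT, PER1 of GPI-anchor remodelling (1.06 and 1.11) and RRT12 (0.64 and 0.96) were higher, and the phosphate transporter gene PHO87 did not pass at 0.35 and 0.04, although its promoter reached 2.36 and 2.00. By HMR, CDC50, a flippase subunit, read -0.89 and -0.89, and OCA4 did not pass at 0.08 and 0.15. OCA4 was -0.43 and lower when dim probes were kept.

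The highest frames of the chromosome were YCR006C (3.89 and 4.12, 16.0-fold above the array median on 1 probe), SRD1 (3.63 and 3.99) and YCR090C (3.55 and 3.74), followed by KAR4 and ADY2. SRD1 is linked to pre-rRNA processing. The lowest after HMLALPHA1 and EMA35 were the protein kinase gene KIN82 (-1.63 and -1.45), HMLALPHA2 and the decapping activator gene PAT1 (-1.54 and -1.46).

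Promoters are where chromosome 3 differed most from the other chromosomes. Of 119 measured promoters (probes outside all frames, at most 500 bp before a start codon), 70 were higher (58.8%) and 17 lower (14.3%), against 75.9% and 7.01% (82.9% in all) of all 4521. All measured promoters of chromosome 3 had the same limma standard error (0.167), so these calls are a cut on the mean. The median promoter value was 0.59 against 0.99 for the rest of the genome. Per array, the median minus that of the rest was -0.45 and -0.34, mean -0.40 ± 0.07 (SD, n = 2), so the chromosome was lower on both arrays by more than the spread between them. The difference was chosen for description after the values were seen.

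Among the 16 chromosomes the promoter median of chromosome 3 was the second lowest, above chromosome 1 (0.21) and below chromosome 6 (0.68). These are also the 3 shortest chromosomes, with last probes at 314, 230 and 270 kb, so length and chromosome identity cannot be told apart here. Leaving out promoters within 30 kb of the first or last probe of any chromosome gave 0.71 for chromosome 3 (101 promoters), still the second lowest, and a difference of -0.27 and -0.32. Promoter probes not well above background made up 25.4% on chromosome 3 and 27.3% elsewhere. Single promoter probes showed the same order, 0.82 ± 0.05 over 145 probes against 1.15 ± 0.06, whereas probes inside frames averaged -0.09 ± 0.03 over 650 probes against -0.13 ± 0.02.

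**Figure D4:**
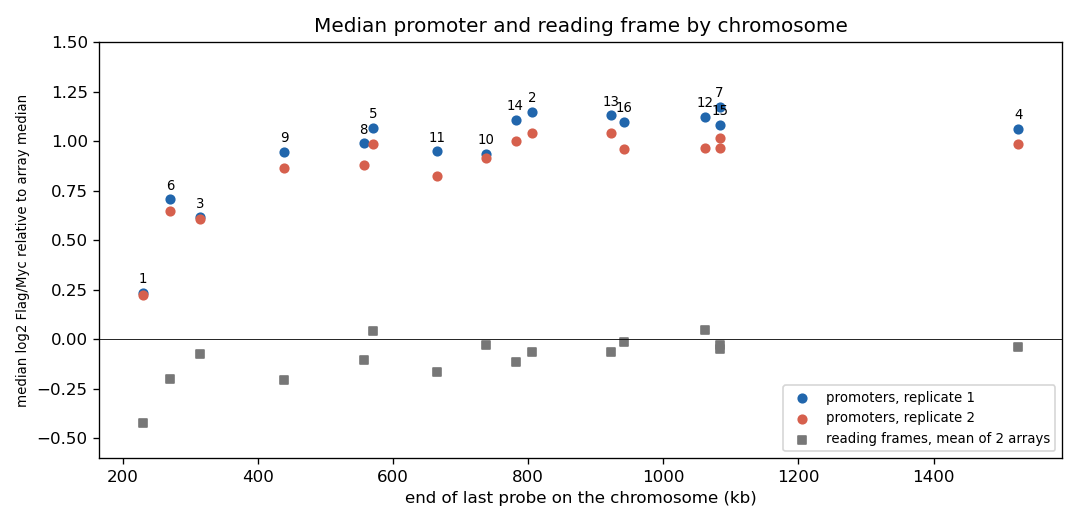
Median centred log2 Flag/Myc ratio (vertical axis, 0 is the array median) of promoters on each replicate (circles) and of reading frames (squares), against the end of the last probe of each chromosome in kb (horizontal axis). Numbers name the 16 chromosomes. Chromosomes 1, 3 and 6, the shortest, have the lowest promoter medians, and chromosome 3 lies at 0.62 and 0.61.

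EMA35 (-1.52 and -1.79), the shared promoter of HMRA1 and HMRA2 (-1.39 and -1.71), VBA3 (-1.35 and -1.60) and YCL001W-A beside CEN3 (-1.34 and -1.30) were the lowest. Of the 6 measured right-end promoters 1 was lower, EMA35, and 5 did not pass, with a median of 0.00 where the median of all promoters was 0.98. The highest measured promoter was that of PMP1, a regulator of the plasma membrane proton pump (3.91 and 4.27, 17.0-fold above the median). Next came YCR006C (3.93 and 3.96), YCR024C-B (3.78 and 4.10), CIT2 (3.50 and 4.13) and the peroxisome gene PEX34 (2.82 and 3.05). AGP1 has no promoter value and is not in this ranking. In the chromatin list 3 of 10 promoters were higher, 2 lower and 5 did not pass. The 2 lower ones, MSH3 and CDC39, share 1 value, which was 0.06 and did not pass with background correction from the raw signals. Of the higher ones, HCM1 (1.77 and 1.84) and RSC6 (1.66 and 1.75) were high on both arrays, and MRC1, at 0.89 and -0.16, differed in sign.

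Regions around tRNA genes were mostly above the array median, but so is most DNA outside frames. On the other chromosomes promoter probes averaged 1.15 ± 0.06, and probes outside frames and promoters 0.88 ± 0.06. Chromosome 3 has 8 tRNA genes with used probes within 500 bp. They ranged from -0.16 ± 0.17 at tG(GCC)C to 3.94 ± 0.03 at tP(AGG)C, which shares its 2 probes with the YCR006C promoter. The boundary gene tT(AGU)C, at 1.59 ± 0.03 over 3 probes (that at 295327 overlaps a repeat), was the fourth highest of the 8. It lay below tP(AGG)C, tS(CGA)C (1.91 ± 0.18) and tL(CAA)C (1.64 ± 0.15). It exceeded tN(GUU)C (1.44 ± 0.05) by more than the spread of either, and its order against tL(CAA)C lies within the spread. The rank of tT(AGU)C depends on the repeat probe. Its other 2 probes averaged 2.01 ± 0.02, above tL(CAA)C by more than the spread and above tS(CGA)C within it.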

How the data were processed

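Chromatin precipitated with anti-Flag and anti-Myc antibody was read on 2 arrays of 1 group. The authors deposited an intensity for each spot and channel, detrended over the array and with surrogates for dim spots, by version 8.5.1.1 of Agilent Feature Extraction, per the file headers. The log10 ratio they deposited is Myc (red) over Flag (green) and was not used. The value table the authors deposited holds the log2 of red over green, uncentred (medians 0.37 and 0.35), and was used with its sign turned as an alternative. Here log2 of green over red processed intensity was centred on each array's median (-0.46 on both before centring). Probes were used if free of outlier flags and, on each array, well above background in each channel. The number of arrays limits the precision.

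Left ends of genes were derived from the distances listed for each probe, and lengths came from a reference table of assembly R64, used for names and lengths only. It matched 5927 of 6593 frames. Another 59 frames whose listed position conflicted with their neighbours or their length were left out, which kept 5868. AGP1 was among them. Values of frames, promoters and 10 kb windows are means of used probes. The tests were limma 3.58.1 in R 4.3.3 (lmFit on an intercept, eBayes) over all probes, frames, promoters or windows of the nuclear genome, with Benjamini-Hochberg adjustment and a threshold of 0.05. The fit was tested on simulated data. Called means off the array median. Percentiles are over all used probes, frames, promoters or windows.

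Named were all probes in and near the cassettes, the 5 highest and lowest frames and promoters, the extreme windows, and the members of gene lists by role or position, CEN3 and the recombination enhancer. Members and lists were chosen with earlier results of these data known. Alternatives were background correction of the raw signals (normexp), loess, scaled arrays, no filter on dim probes, flagged probes kept, the value table, shared probes left out and single arrays.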

Additional observations from a re-analysis of the deposited data

How the results depend on the processing

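Of the 162 named genes, probes and windows, 121 kept their direction and their side of the threshold under every alternative setting that gave a value, single arrays aside. The arrays are 2, each on its own slide, so no slide effect can be separated from the replicate. No paired analysis was possible because there is 1 group. A single array leaves no residual degrees of freedom, so counts have no value without a replicate. With background correction of the raw signals (normexp), 11 promoters were lower in place of 17, HML was at -1.78 and -1.67 against its flanks, HMR against its flanks at -0.55, and the chromosome against the rest at -0.036. Under loess these were -2.37 and -2.27 for HML, -1.36 and -0.93 for HMR, and -0.082 for the chromosome. Without the filter on dim probes HML was at -0.90 and -0.78 against its flanks, HMR against its flanks at -0.65, the chromosome at -0.040 and the promoter difference at -0.30. With flagged probes kept, HML against flanks was -1.42, HMR against flanks -0.64 and the chromosome -0.059, and with shared probes left out the chromosome was -0.031. Between silencer origins HML was at -0.68 and HMR at -0.65, and without promoters within 30 kb of the ends the promoter difference was -0.30. Both of these, and the promoter difference itself, were added after the data were seen. Without either replicate, HML ranged from -1.63 to -1.62 (against flanks -1.55 to -1.49), MAT from -1.35 to -0.46 (-1.81 to -0.90), HMR from -1.29 to -1.02 (-0.62 to -0.61), the chromosome from -0.043 to -0.041 and the promoter difference from -0.45 to -0.34. The sign turned under loess for the frames of ILV6 (-0.55) and IMG1 (-0.58) and the promoters of MRC1 (-0.038), ADH7 (-0.36) and CDC10 with MRPL32 (-0.38). It turned without the filter on dim probes for OCA4 (-0.43). It turned under normexp for the shared MSH3 and CDC39 promoter (0.059), the probe at 14500 by HML (0.43) and 4 probes by CEN3, at 113150 (0.37), 115222 (0.057), 115476 (0.35) and 115588 (0.10). Single arrays ranged from -0.15 to 0.89 at the STE50 promoter, from -0.16 to 0.89 at the MRC1 promoter and from -0.077 to 0.98 at the probe at 115951 by CEN3. The cause of these changes was not tested.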
